A study of Mus musculus with 8 samples.

Results

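RNA from mouse P19 cells carrying a MyoD protein with the DNA-binding domain of NeuroD2 was compared with RNA from P19 cells carrying MyoD itself. P19 is an embryonal carcinoma line, undifferentiated when grown in serum and able to form neurons or muscle. The chimera, MD(ND2bHLH), was delivered by lentivirus at a labelled multiplicity of infection (MOI, infectious particles per cell) of 100, and MyoD by lentivirus at an MOI that the labels do not give. All genes of the deposited table were used, so the comparison takes 2 of the 8 libraries and 37558 genes, of which 15547 reached 1 CPM, the count scaled to library depth, in at least 1 of the 8. Both cultures were infected in the presence of polybrene and were then moved to Neurobasal medium with B27, a medium made for neurons. RNA was selected by oligo-dT. The other libraries used here for context carried the chimera with no MOI label, NeuroD2, or GFP. Each group had 1 library, so no difference below has a replicate check, no test between groups was made, and the words higher and lower compare single libraries.

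MyoD and NeuroD2 are basic helix-loop-helix (bHLH) transcription factors. The bHLH domain pairs with an E-protein partner and binds short DNA words called E-boxes, written CANNTG. MyoD drives cells into skeletal muscle, with myogenin and the Mef2 factors acting after it, and NeuroD2 drives neuronal differentiation together with relatives such as NeuroD1. Both bind the E-box CAGCTG, while MyoD is also known to favour CAGGTG and NeuroD2 to favour CAGATG. The study asked whether the binding domain sets the lineage.

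The chimera at MOI 100 held lower levels of most sarcomere genes than MyoD, a higher level of myogenin, and higher levels of a wide set of neuronal genes. The size rule took genes that were 4-fold or more apart, computed as log2(CPM + 0.5), and that reached 5 CPM in whichever library was higher. By this rule 607 of the 15547 measured genes, or 3.90%, were higher in the chimera at MOI 100, and 357, or 2.30%, were lower. Of the measured genes 78.5% lay under 2-fold apart, and the median log2 ratio over all of them was 0.00. At 16-fold or more there were 157 higher and 47 lower genes. Of the higher genes 12 had a count of 0 in MyoD, while 0 of the lower genes had a count of 0 in the chimera.

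Promoters of 5 genes are printed because the genes mark the extremes of the comparison and a pair of muscle synapse genes that differ. They were chosen after their values were seen. Rgs4 and Nhlh1 are among the 15 highest genes, Fgf6 is the lowest by its interval, Musk was level between the libraries, and Chrng was lower in the chimera although its product sits in the same synapse as that of Musk. Each window runs 250 bases before to 50 bases after the annotated start, 5′ to 3′ on the gene's own strand, from RefSeq on GRCm38.p6. Capitals mark the E-box words CAGCTG and CAGGTG and also CAGATG, the last also where it reads CATCTG on the printed strand.
Rgs4, chr1:169747593-169747892, minus strand: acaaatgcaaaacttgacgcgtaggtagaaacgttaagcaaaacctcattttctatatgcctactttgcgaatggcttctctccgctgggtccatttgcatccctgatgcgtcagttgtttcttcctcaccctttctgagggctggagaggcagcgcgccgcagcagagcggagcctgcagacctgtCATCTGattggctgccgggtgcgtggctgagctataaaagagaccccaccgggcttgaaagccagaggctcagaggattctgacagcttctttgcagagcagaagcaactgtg
Nhlh1, chr1:172057547-172057846, minus strand: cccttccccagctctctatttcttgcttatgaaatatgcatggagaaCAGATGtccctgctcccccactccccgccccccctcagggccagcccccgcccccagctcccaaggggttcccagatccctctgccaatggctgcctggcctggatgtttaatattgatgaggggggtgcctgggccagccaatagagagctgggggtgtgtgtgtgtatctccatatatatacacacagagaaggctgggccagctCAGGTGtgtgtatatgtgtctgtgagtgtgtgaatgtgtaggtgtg
Musk, chr4:58285712-58286011, plus strand: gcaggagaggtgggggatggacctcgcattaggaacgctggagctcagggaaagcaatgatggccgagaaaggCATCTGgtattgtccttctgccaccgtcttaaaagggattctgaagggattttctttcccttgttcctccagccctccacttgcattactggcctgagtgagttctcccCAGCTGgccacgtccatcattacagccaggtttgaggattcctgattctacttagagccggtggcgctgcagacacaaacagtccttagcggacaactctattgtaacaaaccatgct
Chrng, chr1:87205561-87205860, plus strand: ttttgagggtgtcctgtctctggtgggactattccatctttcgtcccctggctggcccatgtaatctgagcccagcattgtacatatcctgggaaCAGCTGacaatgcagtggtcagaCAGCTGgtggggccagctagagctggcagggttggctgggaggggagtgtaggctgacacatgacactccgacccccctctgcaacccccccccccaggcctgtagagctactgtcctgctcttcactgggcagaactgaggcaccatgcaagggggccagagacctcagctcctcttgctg
Fgf6, chr6:127015292-127015591, plus strand: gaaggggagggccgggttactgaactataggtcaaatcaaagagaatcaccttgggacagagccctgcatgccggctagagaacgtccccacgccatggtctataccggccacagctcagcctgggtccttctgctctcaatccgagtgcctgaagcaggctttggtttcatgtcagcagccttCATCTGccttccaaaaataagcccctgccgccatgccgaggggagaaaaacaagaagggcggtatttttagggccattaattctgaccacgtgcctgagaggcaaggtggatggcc

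In these windows the word CAGATG began 63 bases before the start of Rgs4 and 66 bases before that of Fgf6, both read on the opposite strand. Nhlh1 had CAGATG from 203 bases before its start and CAGGTG from 4 bases after it. Musk had CAGATG on the opposite strand from 177 bases before the start and CAGCTG from 68 bases before it. Chrng had CAGCTG from 155 and from 132 bases before the start. The windows of Myog, Neurod1 and Myh3 held none of these words. So CAGATG stood before both the highest and the lowest of the printed genes.

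Windows were matched by symbol, 1 a gene, for 427 of the 607 higher genes, 247 of the 357 lower genes and 10960 of the 15547 measured genes. CAGCTG, which reads the same on both strands, was in 23.4% of the windows of higher genes, 30.8% of those of lower genes and 15.3% of all. CAGGTG, on either strand, was in 21.8% of higher, 23.9% of lower and 17.7% of all windows. CAGATG, on either strand, was in 13.6% of higher, 15.4% of lower and 11.4% of all windows. Every word was thus more frequent in windows of lower genes than of higher ones, and least frequent over all measured genes. A window can hold several of the words, the 3 shares are descriptions with no test, and a word in a promoter is not a measured binding site.

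Reads on Myod1 were more abundant in the chimera library. Myod1, most of whose coding sequence is in both constructs, had 555 CPM in the chimera at MOI 100 and 296 CPM in MyoD, from 15991 and 7713 counts. It was 1.87-fold higher in the chimera, with a 95% Clopper-Pearson interval of 1.82 to 1.93, which like every interval given here covers counting error only. The chimera lacks the bHLH stretch of Myod1, so its counts come from a shorter piece of the gene. With no MOI label the chimera had 116 CPM, so the 2 chimera libraries lie on either side of MyoD. Neurod2, which lends the chimera its bHLH stretch, had 73.3 CPM in the chimera at MOI 100 and 0 counts in MyoD. That is 636-fold against a floor of 3 counts in MyoD, or at least 217-fold at the low end of its interval. NeuroD2 cells had 180 CPM. GFP cells had 103 counts of Neurod2, and the chimera at MOI 100 was 29.3-fold higher than GFP cells (24.0 to 36.0). MyoD, at 0 counts, thus lay below GFP cells, 21.7-fold against the floor (7.24 to 107). Reads of a delivered sequence and of the cell's own gene fall on the same gene here. The construct differs between the libraries, the MOI of MyoD is not known, and any difference in virus dose cannot be told apart from that in construct.

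**Figure D1:**
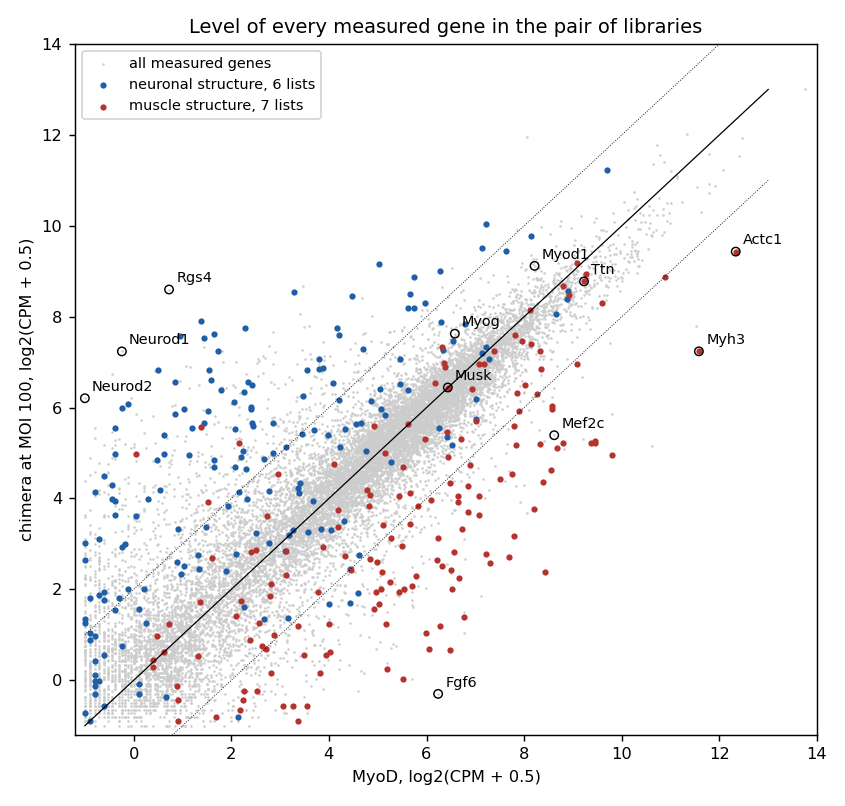
Level of each of the 15547 measured genes, as log2(CPM + 0.5), in the chimera at MOI 100 (vertical) against MyoD (horizontal); the solid line marks equal levels, the dotted lines 4-fold. Genes of muscle structure (red) lie mostly below the solid line and genes of neuronal structure (blue) mostly above it, while Musk and Ttn lie close to it.

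The 4 marker genes of the comparison differed in direction. Myog, which encodes myogenin, the bHLH factor of muscle differentiation, had 197 CPM in the chimera at MOI 100 and 95.1 CPM in MyoD, a ratio of 2.07 (1.97 to 2.17). Mef2c, a MADS-box factor that acts with myogenin on muscle genes, had 41.5 CPM in the chimera at MOI 100 and 392 CPM in MyoD, 9.44-fold lower (8.89 to 10.04). Myh3, the embryonic myosin heavy chain, had 150 CPM in the chimera at MOI 100 and 3060 CPM in MyoD, 20.3-fold lower (19.7 to 21.0). Neurod1, a neurogenic bHLH factor, had 150 CPM in the chimera at MOI 100 and 0.346 CPM in MyoD, 435-fold higher (229 to 951). So 1 muscle marker was higher, 2 were lower, and the neuronal marker was nearly absent from MyoD. In GFP cells Myog, Mef2c, Myh3 and Neurod1 stood at 0.0486, 0.948, 0.511 and 0.608 CPM, below their levels in the chimera at MOI 100. In the chimera with no MOI label they stood at 58.2, 26, 132 and 38.6 CPM. A lower level in bulk RNA can come from fewer cells of a type or from less RNA per cell, and these cannot be told apart here.

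Summed markers of other cell types were set beside these results. The 6 skeletal muscle markers summed to 420 CPM in the chimera at MOI 100 and 3802 CPM in MyoD, and the 6 neuron markers to 2355 CPM in the chimera and 227 CPM in MyoD. Most of the muscle sum in MyoD was Myh3, at 3060 CPM, and Myog went the other way, as given above. The 5 markers of undifferentiated P19 cells summed to 389 CPM in the chimera at MOI 100 and 1144 CPM in MyoD. Among them Pou5f1 had 38.9 CPM in the chimera and 587 CPM in MyoD. Only Sox2 was higher in the chimera, at 108 CPM against 95.7 CPM in MyoD. Cardiac markers summed to 7.53 CPM in the chimera and 110 CPM in MyoD, with Myl7 at 0 in MyoD. Nearly all of the cardiac sum in MyoD was Myh6, at 102 CPM, and Nkx2-5, Nppa, Nppb and Myl7, 4 of the 6 markers, were lower in MyoD than in the chimera. Smooth muscle markers summed to 67.7 CPM in the chimera and 897 CPM in MyoD, nearly all of it in MyoD from Acta2, at 888 CPM. Tagln and Cnn1 were higher in the chimera, at 8.82 and 0.694 CPM against 5.95 and 0.614 CPM in MyoD. Myh11 was lower, with 0.902 CPM in the chimera and 2.19 CPM in MyoD. Fibroblast markers summed to 65.8 CPM in the chimera and 76.5 CPM in MyoD, although 4 of the 5 were higher in the chimera, while Col1a2 had 34.0 CPM in the chimera and 74.0 CPM in MyoD. Glial markers summed to 41.5 CPM in the chimera and 61.9 CPM in MyoD, with Sox10 at 0 in MyoD, and the 4 endoderm markers to 0.382 CPM in the chimera and 0.307 CPM in MyoD. Of the endoderm markers, Sox17 and Alb were at 0 in the chimera and Afp, Sox17 and Alb in MyoD. Rn7s6, a 7S RNA gene named after its values were seen, had 1.21 CPM in the chimera at MOI 100 and 13.5 CPM in MyoD. It stood at 0.565 to 1.28 CPM in 4 libraries and 13 to 16.3 CPM in the other 4. The chimera with no MOI label, at 0.565 CPM, and NeuroD2, at 0.594 CPM, were on the low side with the chimera at MOI 100. GFP, at 16.3 CPM, was on the high side with MyoD. The part of any of these in the results was not tested. Totals were 28113664 counts for the chimera at MOI 100 and 27754554 for MyoD, so a floor of 3 counts is 0.104 CPM in the chimera and 0.115 CPM in MyoD.

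Muscle regulators differed in both directions. Of 31 measured myogenic regulators 3 were higher and 6 lower by the size rule, with a median log2 ratio of -0.70. These are 9.68% and 19.4%, against 3.90% and 2.30% of all measured genes. Under 2-fold apart were 13 of the 31, against 78.5% of all measured genes. Eya2, a transcriptional cofactor, had 128 CPM in the chimera at MOI 100 and 3.07 CPM in MyoD, 41.7-fold higher (33.4 to 52.7). It had 30.9 CPM in NeuroD2 cells. Mef2b, a second Mef2 factor, had 3.16 CPM in the chimera at MOI 100 and 35.4 CPM in MyoD. Tbx1, a T-box factor of head muscle, had 0.694 CPM in the chimera at MOI 100 and 17.9 CPM in MyoD. The other higher members were Pax3 and Pax7, paired-box factors of muscle and neural progenitors, at 18.3 and 7.5 CPM in the chimera against 3.11 and 0.922 CPM in MyoD. Pax3 and Pax7 had 22.2 and 2.13 CPM in NeuroD2 cells and 4.99 and 0.730 CPM in GFP cells. Pax3 and Pax7 are named after their values were seen.

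Few genes of myoblast adhesion and fusion met the size rule. Of 24 measured members 1 was higher and 2 lower, or 4.17% and 8.33%, against 3.90% and 2.30% of all measured genes. Under 2-fold apart were 11 of the 24, against 78.5% of all measured genes. The median was -0.36, or -0.23 with total counts as the scale. Itgb1bp2, the muscle chaperone-like protein melusin, had 3.68 CPM in the chimera at MOI 100 and 56.5 CPM in MyoD, 15.4-fold lower (12.6 to 18.9). Cdh15, muscle cadherin, had 101 CPM in the chimera at MOI 100 and 581 CPM in MyoD, 5.74-fold lower (5.52 to 5.97). The 1 higher member was Cdh4, retinal cadherin, with 145 CPM in the chimera at MOI 100 against 11.7 CPM in MyoD. Cdh2, neural cadherin, was short of the size rule and had 458 CPM in the chimera, 135 CPM in MyoD and 287 CPM in GFP cells. Mymk, the fusion protein myomaker, had 57.0 CPM in the chimera at MOI 100 and 140 CPM in MyoD, 2.46-fold lower (2.32 to 2.61), and is named after its value was seen.

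The 7 lists of muscle structure, synapse, calcium handling and metabolism held 159 measured genes. Of these 78 were lower in the chimera at MOI 100 and 4 were higher, with a median log2 ratio of -2.12. The shares are 49.1% lower and 2.52% higher, against 2.30% and 3.90% of all measured genes. Under 2-fold apart were 46 of the 159 genes, or 28.9%, against 78.5% of all measured genes. Lower than MyoD was not the same as silent. Against GFP the same genes had a median of 1.35 in the chimera at MOI 100 and 3.57 in MyoD, ratios that share the GFP library. By the size rule over GFP 48 of them were higher in the chimera at MOI 100, where 5.40% of all measured genes were higher and 2.51% lower, and 99 were higher in MyoD, where 2.75% were higher and 0.920% lower. Of the 78 genes below MyoD, 29 were still higher than GFP in the chimera. Over all measured genes the same held for 48 of the 357 lower genes.

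Thick filament genes were the lowest list. All 20 measured members were lower by some amount and 18 by the size rule, with a median of -3.89. Myh7, the slow and cardiac myosin heavy chain, had 4.72 CPM in the chimera at MOI 100 and 346 CPM in MyoD, 73.2-fold lower (61.8 to 87.4). It had 17.9 CPM in the chimera with no MOI label. Mylk4, a myosin light chain kinase, had 1.08 CPM in the chimera at MOI 100 and 88.2 CPM in MyoD, and Myom3, an M-band myomesin, had 2.12 CPM in the chimera and 108 CPM in MyoD. Myl4, an embryonic and atrial light chain, had 6.07 CPM in the chimera at MOI 100 and 205 CPM in MyoD. The low level thus covered heavy chains, light chains and M-band proteins alike. Myosin heavy chains and muscle actins lie close in sequence, and the way reads were shared among such copies is unknown.

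Thin filament genes followed, with 14 of 22 lower, 1 higher and a median of -2.74. Tnnc1, the slow and cardiac troponin C, had 13.2 CPM in the chimera at MOI 100 and 293 CPM in MyoD, 22.3-fold lower (20.1 to 24.8). Slow troponins Tnnt1 and Tnni1 had 36.9 and 24.3 CPM in the chimera at MOI 100 against 697 and 375 CPM in MyoD. Actc1, the sarcomeric actin of heart and embryonic muscle, had 690 CPM in the chimera at MOI 100 and 5163 CPM in MyoD, 7.48-fold lower (7.37 to 7.60), with 42.3 CPM in GFP cells. The exception was Nebl, a nebulin relative found outside skeletal muscle, with 31.1 CPM in the chimera at MOI 100 and 0.538 CPM in MyoD, 57.8-fold higher (34.3 to 106). Tpm2, a tropomyosin, sat just short of the 4-fold threshold with 470 CPM in the chimera and 1878 CPM in MyoD. Actc1 and Tpm2 are named after their values were seen.

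In the list of titin, Z-disc and sarcomere assembly genes 21 of 36 were lower and 1 was higher, with a median of -2.19. Myot, the Z-disc protein myotilin, had 0.521 CPM in the chimera at MOI 100 and 45.1 CPM in MyoD, 86.7-fold lower (52.3 to 155). Klhl40, a stabiliser of thin filament proteins, had 1.11 CPM in the chimera at MOI 100 and 65.9 CPM in MyoD. Hspb2, a small heat shock protein of muscle, had 1.56 CPM in the chimera and 62.7 CPM in MyoD, and Actn2, the Z-disc α-actinin, had 30.7 CPM in the chimera and 895 CPM in MyoD. Under 2-fold apart were 7 of the 36, among them the giant spring protein titin. Ttn had 438 CPM in the chimera at MOI 100 and 598 CPM in MyoD, 1.37-fold lower (1.33 to 1.40), against 1.58 CPM in GFP cells, and is named after its value was seen. The 1 higher member was Synm, the intermediate filament protein synemin, with 14.6 CPM in the chimera and 2.38 CPM in MyoD. In GFP cells Synm had 9.70 CPM, so MyoD held the low value.

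Genes of the neuromuscular synapse were split, with 7 of 17 lower, 1 higher and a median of -1.68. Chrna1, the α subunit of the muscle acetylcholine receptor, had 4.86 CPM in the chimera at MOI 100 and 90.0 CPM in MyoD, 18.5-fold lower (15.6 to 22.1). Rapsn, which clusters the receptor, had 3.68 CPM in the chimera at MOI 100 and 51.5 CPM in MyoD. Chrng, the fetal γ subunit, had 22.8 CPM in the chimera at MOI 100 and 214 CPM in MyoD, 9.42-fold lower (8.68 to 10.2). Musk, the receptor kinase that organises the synapse, had 86.4 CPM in the chimera at MOI 100 and 86.0 CPM in MyoD, a ratio of 1.0 (0.948 to 1.06), against 0.535 CPM in GFP cells. These receptor subunits were thus lower while the kinase was level. Etv5, an ETS factor, had 19.96 CPM in the chimera at MOI 100 and 333 CPM in MyoD. Nrg1, the growth factor neuregulin that neurons release, had 46.9 CPM in the chimera at MOI 100 and 2.11 CPM in MyoD, 22.2-fold higher (17.0 to 29.7). Chrng and Musk are named after their values were seen.

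Among excitation-contraction coupling genes 9 of 25 were lower and 1 higher, with a median of -1.39. Sln, sarcolipin, a small inhibitor of the calcium pump, had 0.694 CPM in the chimera at MOI 100 and 36.0 CPM in MyoD, 51.9-fold lower (33.4 to 85.3). Jph2, junctophilin of the membrane junctions, had 3.51 CPM in the chimera at MOI 100 and 91.4 CPM in MyoD, and Trdn, triadin, had 0.972 CPM in the chimera and 14.9 CPM in MyoD. Cacng6, a calcium channel γ subunit, had 5.80 CPM in the chimera at MOI 100 and 73.9 CPM in MyoD. The pump itself was close between the libraries, since Atp2a1, the fast-muscle calcium ATPase, had 355 CPM in the chimera at MOI 100 and 480 CPM in MyoD, with 1.26 CPM in GFP cells. The higher member was Ryr3, a ryanodine receptor also found in brain, with 36.6 CPM in the chimera and 3.95 CPM in MyoD. Atp2a1, Synm and Ryr3 are named after their values were seen.

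Dystrophin complex genes had 4 of 18 members lower and 0 higher, with a median of -0.95, and muscle metabolism genes 5 of 21 lower and 0 higher, with a median of -1.32, or -0.73 with a pseudocount of 2 CPM. Sntb1, a syntrophin, had 3.37 CPM in the chimera at MOI 100 and 43.0 CPM in MyoD, and Trim72, a membrane repair protein, had 2.46 CPM in the chimera and 30.0 CPM in MyoD. Sspn, sarcospan of the same complex, had 1.8 CPM in the chimera at MOI 100 and 9.83 CPM in MyoD. Cox6a2, the muscle form of a cytochrome oxidase subunit, had 1.8 CPM in the chimera at MOI 100 and 76.6 CPM in MyoD, 42.4-fold lower (32.2 to 57.0). Pgam2 and Pygm, the muscle forms of phosphoglycerate mutase and glycogen phosphorylase, had 6.52 and 21.2 CPM in the chimera at MOI 100 against 93.9 and 180 CPM in MyoD. Ampd1, the muscle AMP deaminase, had 0.174 CPM in the chimera at MOI 100 and 9.14 CPM in MyoD.

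**Figure D2:**
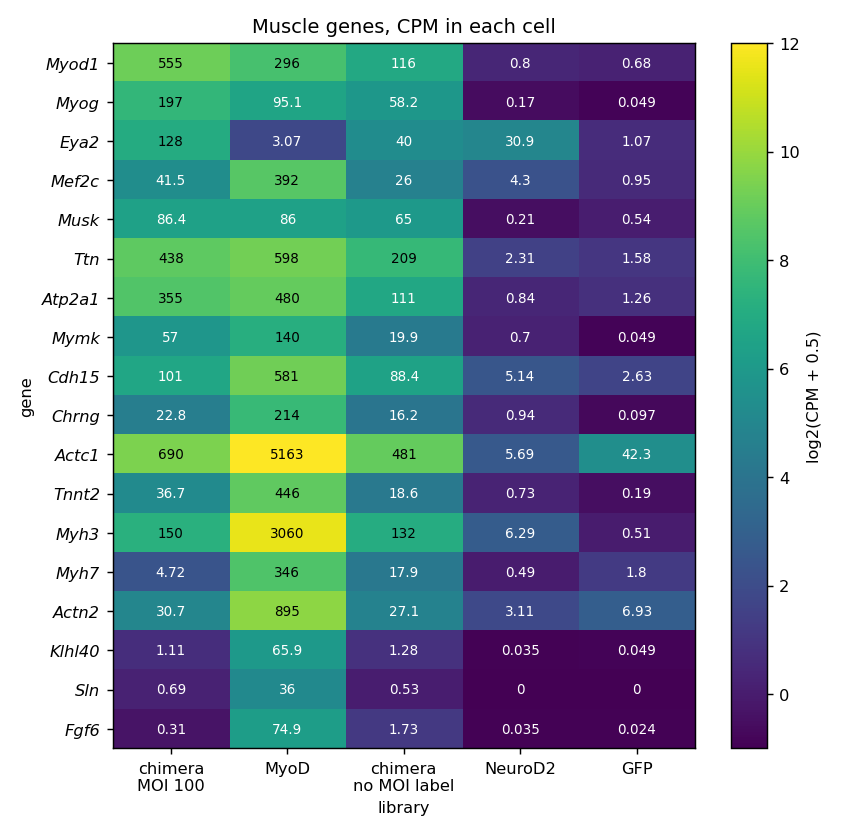
CPM of 18 muscle genes in 5 libraries, the number in each cell being CPM and the colour log2(CPM + 0.5). Musk had 86.4 CPM in the chimera at MOI 100 and 86.0 CPM in MyoD and Ttn 438 CPM in the chimera and 598 CPM in MyoD, whereas Myh3 had 150 CPM in the chimera and 3060 CPM in MyoD.

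Of the 15 lowest genes 6 lay in none of the lists. Fgf6, a fibroblast growth factor of the myogenic lineage, had 0.312 CPM in the chimera at MOI 100 and 74.9 CPM in MyoD, 240-fold lower (126 to 525). It was at 1.73 CPM in the chimera with no MOI label, so its low level was shared by both chimera libraries. Alpk3, a kinase-like protein of heart and skeletal muscle, had 0.521 CPM in the chimera at MOI 100 and 51.2 CPM in MyoD, and Lmcd1, a LIM-domain protein of muscle, had 1.56 CPM in the chimera and 109 CPM in MyoD. Dhrs7c, an enzyme of the sarcoplasmic reticulum, had 0.347 CPM in the chimera at MOI 100 and 23.7 CPM in MyoD, and Prr32 had 0.798 CPM in the chimera and 36.2 CPM in MyoD. F2, prothrombin, is known as a liver product and had 3 counts in the chimera at MOI 100 and 294 counts in MyoD, 108-fold lower (36.7 to 529). Myl3, the slow and ventricular light chain of the thick filament list, had 1 count in the chimera and 254 counts in MyoD, 281-fold lower (49.98 to 11143). With Myh7, Mylk4, Myot, Klhl40, Myom3, Sln, Cox6a2 and Hspb2 these make up the 15 lowest genes.

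**Figure D3:**
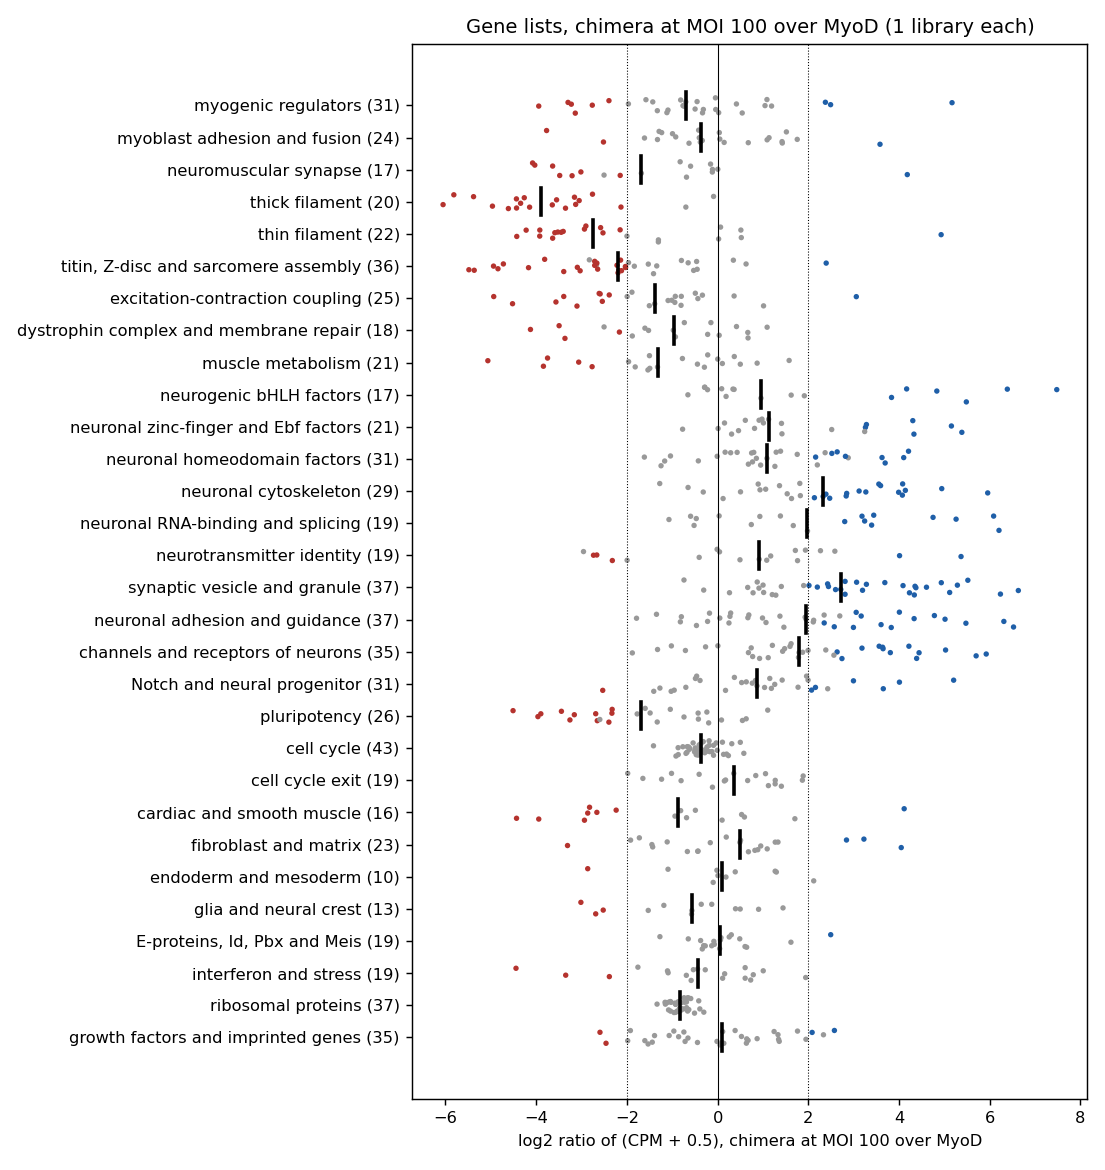
Log2 ratio of (CPM + 0.5), chimera at MOI 100 over MyoD, for each measured member of 30 gene lists, with the number of members in brackets; blue and red points met the size rule, bars are list medians and dotted lines mark 4-fold. Medians run from -3.89 for the thick filament to 2.72 for synaptic vesicle and granule genes.

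Neuronal transcription factors were higher where they met the size rule. Of 69 measured members of 3 lists 20 were higher and 0 lower, with a median log2 ratio of 1.09. Over all measured genes 3.90% were higher and 2.30% lower. By some amount 11 of the 69 were lower. Nhlh1 and Nhlh2, bHLH factors of newly born neurons, had 112 and 27 CPM in the chimera at MOI 100 against 0.845 and 0.115 CPM in MyoD. Olig2, a bHLH factor of spinal progenitors and oligodendrocytes, had 19.2 CPM in the chimera at MOI 100 and 0.192 CPM in MyoD. Neurog2, a proneural factor that acts earlier, had 2 counts in the chimera at MOI 100 and 0 in MyoD. In all 6 of 17 neurogenic bHLH genes were higher. Neurog2 is named after its value was seen.

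Among zinc-finger and Ebf factors 6 of 21 were higher. St18, a zinc-finger factor of the Myt1 family, had 36.4 CPM in the chimera at MOI 100 and 0.384 CPM in MyoD, 94.9-fold higher (51.4 to 198). Ebf2 and Ebf3, which act after NeuroD factors in neuronal differentiation, had 89.8 and 148 CPM in the chimera at MOI 100 against 2.04 and 6.91 CPM in MyoD. Scrt1, a neuronal repressor, had 292 counts in the chimera at MOI 100 and 1 in MyoD, 264-fold higher (47.0 to 10460). Among homeodomain factors 8 of 31 were higher. Onecut2 had 108 CPM in the chimera at MOI 100 and 5.80 CPM in MyoD, and Pou4f1, a factor of sensory neurons, had 31.8 CPM in the chimera and 2.0 CPM in MyoD. Barhl1, a factor of cerebellar and dorsal spinal neurons, had 11.6 CPM in the chimera at MOI 100 and 0.154 CPM in MyoD, but 0.629 CPM in NeuroD2 cells. Lhx9, a LIM-homeodomain factor of dorsal spinal neurons, had 7.57 CPM in the chimera at MOI 100 and 0.154 CPM in MyoD.

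Genes of neuronal structure were higher in larger numbers. Of 176 measured members of 6 lists 78 were higher in the chimera at MOI 100 and 3 lower, with a median of 1.97. These are 44.3% and 1.70%, against 3.90% and 2.30% of all measured genes. Against GFP the 176 genes had a median of 1.98 in the chimera at MOI 100 and -0.12 in MyoD, ratios that share the GFP library. Synaptic vesicle and granule genes were the highest list of all 30, with 24 of 37 higher, 0 lower and a median of 2.72. Chgb, the granule protein chromogranin B, had 190 CPM in the chimera at MOI 100 and 1.42 CPM in MyoD, 134-fold higher (96.8 to 190). Syt2, a calcium sensor of vesicle fusion, had 63.2 CPM in the chimera at MOI 100 and 0.346 CPM in MyoD. Syp, synaptophysin of the vesicle membrane, had 151 CPM in the chimera and 2.80 CPM in MyoD, and Scg3, a granin, had 113 CPM in the chimera and 2.42 CPM in MyoD.

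Neuronal cytoskeleton genes had 16 of 29 members higher and 0 lower, with a median of 2.33. Dcx, the microtubule protein doublecortin of migrating neurons, had 195 CPM in the chimera at MOI 100 and 2.65 CPM in MyoD, 73.6-fold higher (58.0 to 94.7). Tubb3, neuronal β-tubulin, had 1058 CPM in the chimera at MOI 100 and 148 CPM in MyoD, with 110 CPM in GFP cells, and is named after its value was seen. Stmn4, a stathmin, had 62.1 CPM in the chimera at MOI 100 and 1.54 CPM in MyoD, and the kinesins Kif5a and Kif5c had 69.7 and 570 CPM in the chimera against 3.65 and 31.9 CPM in MyoD. Of neuronal RNA-binding and splicing genes 9 of 19 were higher and 0 lower. Celf3 had 67.5 CPM in the chimera at MOI 100 and 0.422 CPM in MyoD, 160-fold higher (89.1 to 321). Srrm4, which promotes neuronal microexons, had 185 CPM in the chimera at MOI 100 and 2.23 CPM in MyoD, Elavl3 had 374 CPM in the chimera and 9.29 CPM in MyoD, and Rbfox3, the antigen NeuN, had 19.2 CPM in the chimera and 0.230 CPM in MyoD.

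At the cell surface 14 of 37 adhesion and guidance genes and 13 of 35 channels and receptors were higher, and 0 of either list lower, with medians of 1.95 and 1.8. With a pseudocount of 2 CPM the median of the adhesion and guidance list was 1.04. Robo2, a receptor for Slit guidance cues, had 240 CPM in the chimera at MOI 100 and 2.11 CPM in MyoD, 114-fold higher (87.2 to 151). It had 71.4 CPM in NeuroD2 cells. Cntn1, an axonal adhesion protein, had 112 CPM in the chimera at MOI 100 and 0.922 CPM in MyoD, Nrp2, a semaphorin receptor, had 215 CPM in the chimera and 4.34 CPM in MyoD, and L1cam had 57.9 CPM in the chimera and 1.31 CPM in MyoD. Ret, the receptor for GDNF-family ligands, had 93.4 CPM in the chimera at MOI 100 and 1.31 CPM in MyoD, 71.5-fold higher (51.0 to 103). The potassium channels Kcnd3 and Kcnc1 had 46.1 and 97.1 CPM in the chimera at MOI 100 against 0.269 and 2.5 CPM in MyoD.

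Genes of transmitter identity were split. Of 19 measured members 2 were higher and 3 lower by the size rule, and 12 were higher and 7 lower by some amount. The shares by the size rule are 10.5% and 15.8%, against 3.90% and 2.30% of all measured genes. Their median log2 ratio was 0.92, but 0.32 with a pseudocount of 2 CPM and 0.15 with no minimum level. Slc17a6, the vesicular glutamate transporter of many projection neurons, had 31.2 CPM in the chimera at MOI 100 and 0.269 CPM in MyoD, 116-fold higher (56.2 to 290). Sst, the peptide somatostatin, had 218 counts in the chimera at MOI 100 and 0 in MyoD, 65.7-fold against the floor, or at least 22.2-fold at the low end of its interval. Gch1, an enzyme of cofactor synthesis for amine transmitters, had 2.74 CPM in the chimera at MOI 100 and 21.1 CPM in MyoD, and Npy, neuropeptide Y, had 3.30 CPM in the chimera and 23.5 CPM in MyoD. In GFP cells Gch1 had 19.2 CPM and Npy 74.3 CPM, so both were lower in the chimera than in GFP cells as well.

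**Figure D4:**
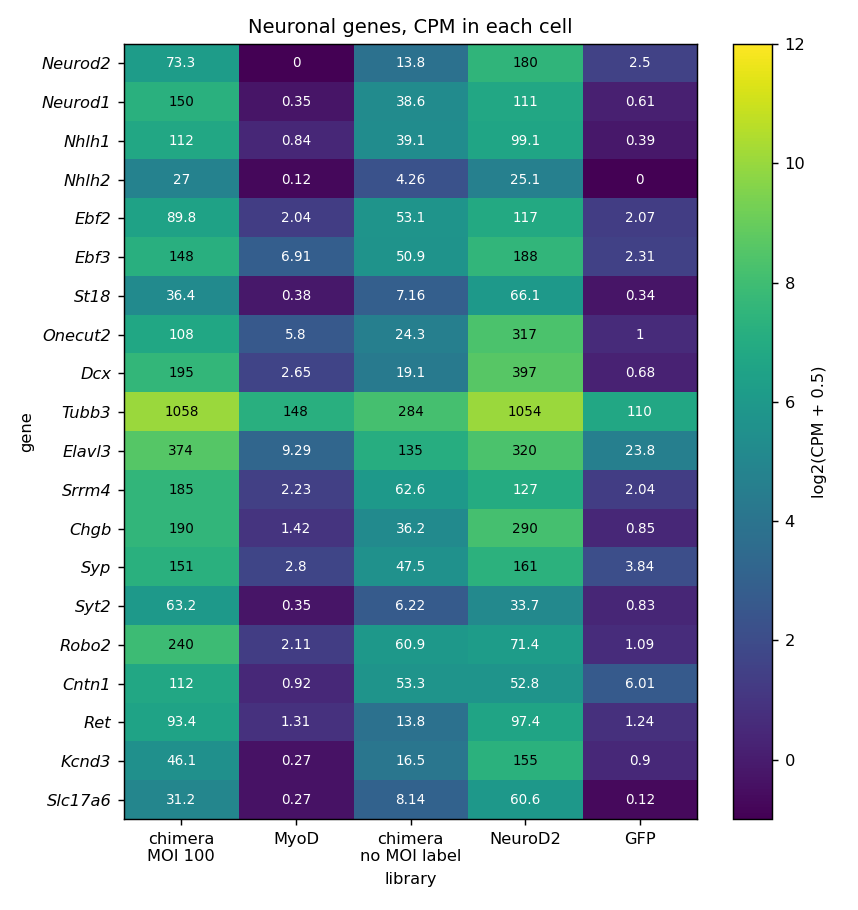
CPM of 20 neuronal genes in 5 libraries, the number in each cell being CPM and the colour log2(CPM + 0.5). Tubb3 had 1058 CPM in the chimera at MOI 100 and 1054 CPM in NeuroD2 cells, while MyoD had 148 CPM and GFP cells 110 CPM.

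Of the 15 highest genes, several lay in none of the lists. Rgs4, a regulator of G protein signalling in neurons, had 387 CPM in the chimera at MOI 100 and 1.15 CPM in MyoD, 336-fold higher (235 to 498), with 148 CPM in NeuroD2 cells. Sez6l, a neuronal membrane protein, had 107 CPM in the chimera at MOI 100 and 0.230 CPM in MyoD. Gsg1l, an auxiliary subunit of AMPA receptors, had 73.7 CPM in the chimera at MOI 100 and 0.461 CPM in MyoD. Pkd2l1, an ion channel of spinal neurons that contact the cerebrospinal fluid, had 35.7 CPM in the chimera at MOI 100 and 0.154 CPM in MyoD, 232-fold higher (90.5 to 854), with 3.42 CPM in NeuroD2 cells and 4.18 CPM in the chimera with no MOI label. Lgi4, a secreted protein of peripheral nerve, Ppp1r17, a phosphatase inhibitor of Purkinje cells, Fxyd3, a sodium pump regulator, and Tmem132c had 1335, 1152, 842 and 648 counts in the chimera at MOI 100 and 2, 2, 1 and 1 in MyoD. Of the 607 higher genes 488 lay in none of the 30 lists, and of the 357 lower genes 245.

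Notch and neural progenitor genes had 6 of 31 members higher and 1 lower, with a median of 0.87. These are 19.4% and 3.23%, against 3.90% and 2.30% of all measured genes. Heyl, a Notch-responsive repressor, had 36.3 CPM in the chimera at MOI 100 and 0.499 CPM in MyoD, 72.8-fold higher (42.4 to 137). Dll4, a Notch ligand, had 16.2 CPM in the chimera at MOI 100 and 0.538 CPM in MyoD, and Mfng, a glycosyltransferase acting on Notch, had 91.3 CPM in the chimera and 6.80 CPM in MyoD. Fabp7, a lipid-binding protein of radial glia, had 16.7 CPM in the chimera at MOI 100 and 1.65 CPM in MyoD. The lower member was Sox3, a progenitor factor named after its value was seen, with 8.54 CPM in the chimera and 51.8 CPM in MyoD. E-proteins, the shared dimer partners, were close between the libraries, with Tcf3, Tcf4 and Tcf12 at 197, 129 and 213 CPM in the chimera at MOI 100 against 243, 163 and 276 CPM in MyoD, all 3 chosen after their values were seen. In that list of 19 genes Meis3, a homeodomain cofactor, was the 1 higher gene, with 36.7 CPM in the chimera and 6.11 CPM in MyoD, while Id2, an inhibitor of bHLH dimers, had 25 CPM in the chimera and 7.79 CPM in MyoD. Hes1, a Notch-responsive repressor, had 22.3 CPM in the chimera at MOI 100 and 54.6 CPM in MyoD, and Id3 had 10.03 CPM in the chimera and 16 CPM in MyoD.

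A large share of the pluripotency genes was lower in the chimera. Of 26 measured members 11 were lower and 0 higher, and their median was -1.68, or -1.04 when genes under 1 CPM were kept. The lower share was 42.3%, against 2.30% of all measured genes. Pou5f1, the gene of Oct4, had 38.9 CPM in the chimera at MOI 100 and 587 CPM in MyoD, 15.1-fold lower (14.2 to 16), with 1227 CPM in GFP cells. Utf1, another factor of undifferentiated cells, had 3.47 CPM in the chimera at MOI 100 and 42.7 CPM in MyoD, and Epcam, an epithelial adhesion protein of such cells, had 3.57 CPM in the chimera and 62.9 CPM in MyoD. Fgf5, a growth factor of primed pluripotent cells, had 1.25 CPM in the chimera at MOI 100 and 39.3 CPM in MyoD, but only 0.681 CPM in GFP cells, so MyoD held the high value. Sox2, which neural progenitors also express, was close, with 108 CPM in the chimera and 95.7 CPM in MyoD, and is named after its value was seen. Against GFP the list had a median of -2.05 in the chimera at MOI 100 and -0.03 in MyoD, ratios that share the GFP library. The median near no change in MyoD does not hold for every member. Summed over the list, levels were 693 CPM in the chimera at MOI 100, 1757 CPM in MyoD and 3355 CPM in GFP cells.

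Ribosomal protein and cell cycle genes were lower by small amounts. Of 37 ribosomal protein genes all 37 were lower in the chimera at MOI 100 than in MyoD, with a median log2 ratio of -0.82, where 50% of all measured genes were lower by some amount. None met the size rule. Rpl3 had 1257 CPM in the chimera at MOI 100 and 3170 CPM in MyoD, 2.52-fold lower (2.49 to 2.55), and Rps20, Rplp2 and Rps16 were 2.23, 2.22 and 2.16-fold lower. In the chimera with no MOI label over MyoD the median was -0.12, in a comparison that shares the MyoD library. Cell cycle genes had a median of -0.37, with 36 of 43 lower and 0 past the size rule. The same genes had a median of 0.23 in the chimera with no MOI label over MyoD. Ube2c, which drives the end of mitosis, had 243 CPM in the chimera at MOI 100 and 647 CPM in MyoD, 2.67-fold lower (2.59 to 2.74), and the mitotic genes Plk1, Ccnb2 and Bub1b had 140, 84.2 and 144 CPM in the chimera against 264, 154 and 264 CPM in MyoD. Of 19 genes of cell cycle exit 0 were higher and 0 lower by the size rule. Btg2, an antiproliferative gene, had 144 CPM in the chimera at MOI 100 and 38.5 CPM in MyoD, and Cdkn1c, an inhibitor of cyclin-dependent kinases, had 1.08 CPM in the chimera and 5.72 CPM in MyoD. Ccnd1, cyclin D1 in the same list, had 65.3 CPM in the chimera at MOI 100 and 17.5 CPM in MyoD, and Gadd45b, a stress-induced gene, had 2.39 CPM in the chimera and 8.56 CPM in MyoD. With total counts as the scale the median of all genes is 0.12 higher (log2) than with TMM, the ribosomal median stands at -0.69 and the cell cycle median at -0.24.

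**Figure D5:**
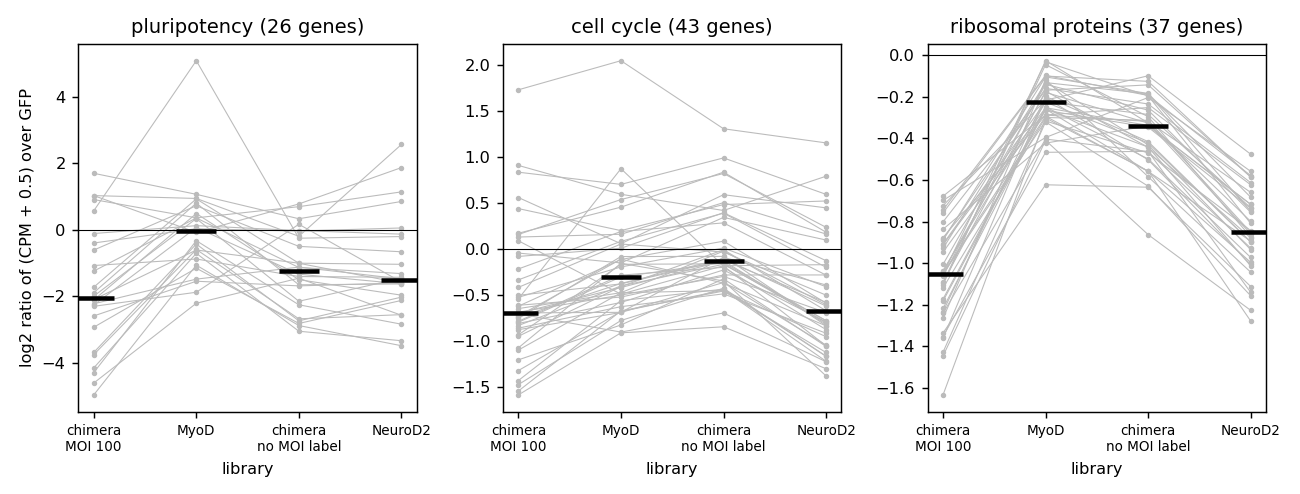
Log2 ratio of (CPM + 0.5) over GFP for each measured gene of 3 lists in the chimera at MOI 100, MyoD, the chimera with no MOI label and NeuroD2; grey lines join a gene and black bars are medians. The ribosomal median is -1.05 in the chimera at MOI 100 and -0.23 in MyoD, and the pluripotency median is -2.05 in the chimera at MOI 100 and -0.03 in MyoD.

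Lists of other tissues were mixed, and some of their members are also counted in lists above. By the size rule 3.90% of all measured genes were higher and 2.30% lower. Among these, Myh6 is also in the thick filament list and Lmod1 in the thin filament list. Erbb3 is also in the neuromuscular synapse list and Foxd3 in the pluripotency list. In cardiac and smooth muscle 7 of 16 were lower and 1 higher. Myh6, a cardiac myosin, had 4.23 CPM in the chimera at MOI 100 and 102 CPM in MyoD, Acta2, smooth muscle actin, had 57.3 CPM in the chimera and 888 CPM in MyoD, and Lmod1, a leiomodin, had 0.972 CPM in the chimera and 10.8 CPM in MyoD. Actg2, enteric smooth muscle actin, had 235 counts in the chimera at MOI 100 and 0 in MyoD, 70.8-fold against the floor, or at least 23.9-fold at the low end of its interval. In fibroblast and matrix genes 3 of 23 were higher and 1 lower. Col3a1 and Col5a1, collagens, had 9.68 and 155 CPM in the chimera at MOI 100 against 0.115 and 21.2 CPM in MyoD, and Pdgfra, a receptor of mesenchymal cells, had 19.99 CPM in the chimera and 1.69 CPM in MyoD. Snai1, a repressor of epithelial genes, had 2.74 CPM in the chimera at MOI 100 and 31.6 CPM in MyoD. Glial and neural crest genes had 3 of 13 lower, among them the neuregulin receptor Erbb3 with 16.2 CPM in the chimera and 134 CPM in MyoD and the crest factor Foxd3 with 1.49 CPM in the chimera and 12.3 CPM in MyoD. Aldh1l1, an astrocyte enzyme, had 0.798 CPM in the chimera at MOI 100 and 6.95 CPM in MyoD, and Sox8, a glial factor, had 6.94 CPM in the chimera and 21.0 CPM in MyoD. Of 10 endoderm and mesoderm genes 1 was lower, Gata6, with 0.868 CPM in the chimera and 9.45 CPM in MyoD.

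Interferon and stress genes had 3 of 19 members lower and 0 higher. The lower share was 15.8%, against 2.30% of all measured genes. Rsad2, an antiviral gene, had 0.659 CPM in the chimera at MOI 100 and 24.7 CPM in MyoD, 37.5-fold lower (23.8 to 62.7), and Bst2, another, had 0.764 CPM in the chimera and 12.4 CPM in MyoD. Trib3, a stress-induced pseudokinase, had 24.8 CPM in the chimera at MOI 100 and 132 CPM in MyoD, and Jun had 98.4 CPM in the chimera and 25.2 CPM in MyoD. Of 35 growth factor and imprinted genes 2 were higher and 2 lower, or 5.71% each way, against 3.90% and 2.30% of all measured genes. Under 2-fold apart were 17 of the 35, against 78.5% of all measured genes. Pdgfa and Igfbp3 had 9.13 and 50.7 CPM in the chimera at MOI 100 against 57.6 and 281 CPM in MyoD, while the neurotrophin Ntf3 and Wnt5a had 6.14 and 56.0 CPM in the chimera against 0.614 and 12.8 CPM in MyoD.

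The chimera with no MOI label, with lower levels of Myod1 and Neurod2 RNA, gives a second reading, and both ratios share the MyoD library. Over MyoD it had 220 genes higher, or 1.42%, and 297 lower, or 1.91%. Muscle structure genes had a median of -2.12 in the chimera at MOI 100 and -2.58 in the chimera with no MOI label, while neuronal structure genes had 1.97 in the chimera at MOI 100 and 0.88 in the chimera with no MOI label. Of the 176 neuronal structure genes 150 stood higher in the chimera at MOI 100 than in the chimera with no MOI label, and of the 159 muscle structure genes 109, where 51.8% of all measured genes did. Myog had 3.38 times its level in the chimera with no MOI label (3.20 to 3.58), while Myh3 had 1.14 times (1.09 to 1.19). Myod1 had 4.80 times (4.62 to 4.99). Of these genes Myh3 was the closest between the chimera libraries, and in both it lay far under its MyoD level.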

How the data were processed

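RNA-seq of mouse P19 cells was analysed from the counts per Ensembl gene that the authors deposited, whole numbers in 8 library columns, all used. Per the submitters' processing notes CASAVA 1.8.2, TopHat2 2.0.8 and the mm9 build were used. No counting tool, annotation release or strand setting is named by them, so overlapping, antisense and near-identical genes may share reads. Symbols were matched by Ensembl ID for 32850 of 37558 genes (87.5%), and 12544 genes had no count in any library.

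Counts were scaled to CPM with TMM factors over the 8 libraries (edgeR 4.0.16, R 4.3.3), 1.02 for the chimera at MOI 100 and 0.938 for MyoD. With 1 library a group there is no test. Ratios are of CPM, with 95% Clopper-Pearson intervals on the 2 counts (scipy 1.17.1), and PCR reads are not independent molecules. A count of 0 was set to 3 counts for a fold, and doing so in the lists moved their medians by 0. A list member counts as measured at 1 CPM in at least 1 library. Of 844 genes in the 30 lists, 7 had no matched row. Members and lists were chosen with earlier results of these data known. Named genes are Myod1, Neurod2, the 4 markers, the 15 highest and 15 lowest by whichever interval end lies closer to a ratio of 1 (predicted or unnamed models skipped) and the 4 members of each list with the largest ratio among those at 5 CPM or more; others are marked, and some are not reported here. Alternatives were DESeq2 1.42.0 size factors, total counts, TMM over the 2 libraries, a pseudocount of 2 CPM, an 8-fold threshold and other minimum levels. Scripts (Python 3.11.15, numpy 2.4.6, pandas 2.3.3, matplotlib 3.10.9) were tested on simulated data.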

Additional observations from a re-analysis of the deposited data

How the results depend on the processing

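At an 8-fold threshold 316 genes were higher and 149 lower in the chimera at MOI 100 than in MyoD. Under the other settings the counts ran over 448 to 744 higher and 260 to 411 lower, against 607 and 357. Scaling to total counts gave a ribosomal protein median of -0.69, and the median of all genes moves by 0.12 with it. Under DESeq2 size factors, total counts, TMM over the 2 libraries, a pseudocount of 2 CPM and no minimum level, 0 of the 30 list medians changed sign, and under the 3 scalings 0 of the 137 named genes reversed. Sizes of list medians were less stable than their signs. List medians moved by over 1.5 times in 10 of 30 lists with a pseudocount of 2 CPM, among them adhesion and guidance at 1.04 against 1.95 and muscle metabolism at -0.73 against -1.32. With no minimum level 7 moved so far, among them pluripotency at -1.04 against -1.68, and with total counts 5. No paired analysis was possible because each group had 1 library. No replicate could be left out for the same reason. At these totals a gene under 0.104 CPM in the chimera at MOI 100 or 0.115 CPM in MyoD rests on under 3 counts, so large folds over such levels have wide intervals. Virus dose, construct and culture cannot be told apart.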
